A study of Mus musculus with 18 samples.

Results

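Bone marrow mesenchymal stem cells (BMSCs) kept in adipogenic induction medium (AI) were compared with BMSCs kept in culture medium (CM), in both cases without FGF9, to describe what 4 days of adipogenic induction alone did to the transcriptome. The comparison holds 6 of the 18 samples of the study, 3 AI and 3 CM samples taken by their labels, and it was made across every gene with enough reads. The other 12 samples are CM and AI cultures that received FGF9 and cultures in osteogenic induction medium (OI) without or with it, and the 3 OI samples without FGF9 were used here only to show where AI stood apart from the other inducing medium. All 6 cultures were wild-type mouse cells, labelled as bone marrow and released with collagenase from compact bone according to the methods, sampled on day 4, and neither group carried another allele or received FGF9. AI was α-MEM with fetal bovine serum, the glucocorticoid dexamethasone, rosiglitazone (a synthetic ligand of PPARG), IBMX (an inhibitor of cyclic nucleotide phosphodiesterases) and insulin. CM was a commercial expansion medium to which these agents were not added, so the base medium changed together with them and their parts in a difference cannot be told apart. OI held the same base and serum with ascorbate-2-phosphate, beta-glycerol phosphate and a lower dose of dexamethasone. The labels do not say whether the 3 samples of a group came from separate mice. The p-values and standard errors come from a fit to all 18 samples. They measure only the spread between samples within groups, and the OI groups and those with FGF9 contribute to it as well as AI and CM.

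Adipocytes arise from stromal progenitors through a relay of transcription factors, in which C/EBPβ and C/EBPδ are induced early by glucocorticoid and cAMP and then hand over to PPARG and C/EBPα, which keep each other switched on and turn on the genes of the fat cell. A fat cell takes up or makes fatty acids, esterifies them to triglyceride and stores this in a lipid droplet coated with perilipins, from which lipases release it again. The same progenitors can become osteoblasts, and in culture they build a collagen matrix and carry contractile stress fibres. The genes are described in that order, from the regulators and lipid genes to the targets of the inducing agents, the matrix, the bone and cartilage genes, and the markers of other cells.

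4 promoters are shown because they carry the DNA element of an inducing agent and belong to genes with values given further on, and they were chosen after their match was seen. Each runs from 250 bases before to 50 bases after the start of the gene, in RefSeq's GRCm38.p6, 5′ to 3′ on the strand of the gene. In Dio2, Errfi1 and Scg2 the capitals mark the cAMP response element TGACGTCA, and in Sgk1 they mark the glucocorticoid element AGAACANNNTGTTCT. Dio2 makes active thyroid hormone, Errfi1 is a feedback inhibitor of the EGF receptor, Sgk1 is a kinase of salt and glucose handling, and Scg2 encodes a secretory granule protein.
Dio2 (chr12:90738989-90739288, minus strand): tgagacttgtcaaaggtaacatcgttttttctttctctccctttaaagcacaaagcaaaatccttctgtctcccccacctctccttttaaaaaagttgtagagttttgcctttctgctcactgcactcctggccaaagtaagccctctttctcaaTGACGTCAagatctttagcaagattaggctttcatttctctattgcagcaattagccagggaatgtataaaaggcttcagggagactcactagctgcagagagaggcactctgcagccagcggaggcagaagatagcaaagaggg
Errfi1 (chr4:150854820-150855119, plus strand): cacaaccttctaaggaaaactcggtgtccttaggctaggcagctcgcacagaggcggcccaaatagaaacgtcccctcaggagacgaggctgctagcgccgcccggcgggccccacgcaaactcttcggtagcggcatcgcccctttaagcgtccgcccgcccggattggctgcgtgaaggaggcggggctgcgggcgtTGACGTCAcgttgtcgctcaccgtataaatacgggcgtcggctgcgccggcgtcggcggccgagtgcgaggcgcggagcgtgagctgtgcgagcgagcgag
Scg2 (chr1:79439977-79440276, minus strand): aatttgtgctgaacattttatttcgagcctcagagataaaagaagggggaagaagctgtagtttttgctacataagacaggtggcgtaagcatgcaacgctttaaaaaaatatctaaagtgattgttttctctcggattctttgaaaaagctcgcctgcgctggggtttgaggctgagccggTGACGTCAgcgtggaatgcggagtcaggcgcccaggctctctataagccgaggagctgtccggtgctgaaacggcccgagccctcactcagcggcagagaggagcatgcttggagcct
Sgk1 (chr10:21993640-21993939, plus strand): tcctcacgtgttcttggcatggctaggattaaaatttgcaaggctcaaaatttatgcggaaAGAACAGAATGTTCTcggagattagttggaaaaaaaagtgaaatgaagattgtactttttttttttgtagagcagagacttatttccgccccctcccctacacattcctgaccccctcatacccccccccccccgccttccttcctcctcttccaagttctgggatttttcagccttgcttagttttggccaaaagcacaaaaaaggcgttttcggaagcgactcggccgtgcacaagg
The element lay 95 to 88 bases before the start in Dio2, 51 to 44 bases before it in Errfi1, 68 to 61 bases before it in Scg2 and 189 to 175 bases before it in Sgk1, and these are 1 of 2 starts listed for Errfi1 and 1 of 6 for Sgk1. Dio2, Errfi1 and Sgk1 rose in AI, whereas Scg2 fell although its promoter holds the same letters as the first pair.

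The shares below count genes with the letters on either strand of at least 1 listed promoter, so genes with more starts had more chances to match. TGACGTCA stood in 34 of the 965 genes higher in AI that had a promoter listed (3.52%). It stood in 15 of 1635 such genes lower in AI (0.917%) and in 394 of the 11915 tested genes (3.31%). Over all genes with a promoter listed, 549 of 27025 held it (2.03%). The direct repeat AGGTCANAGGTCA, which PPARG binds together with a retinoid X receptor, stood in 0 of 965, 1 of 1635 (0.0612%) and 5 of 11915 (0.042%), and the glucocorticoid element in 1 of 965 (0.104%), 0 of 1635 and 1 of 11915 genes, and no motif is contained in another. These shares describe exact letters in 300 bases and say nothing of binding.

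The 6 libraries held 18217102 to 20526502 counted reads, and the 10 most abundant genes took 10.7% to 11.5% of the reads in CM against 6.03% to 6.21% in AI. Of 17631 genes tested with edgeR's quasi-likelihood method on all 18 samples, 3919 (22.2%) were differentially expressed genes (DEGs), meaning a change of at least 1 on the log2 scale at an adjusted p of at most 0.05. Of these, 1530 were higher in AI (8.68% of the tested genes) and 2389 were lower (13.5%), and the median log2 fold change of all tested genes was -0.0026. At the same p without a limit on the fold, 10404 genes (59%) passed, 5031 higher (28.5%) and 5373 lower (30.5%), and in 11521 genes (65.3%) the 3 AI and 3 CM values did not overlap. A fitted change of at least 4-fold was seen in 595 genes higher and 1083 lower in AI. In 40 of the genes called higher no read was counted in CM, and in 48 of those called lower none was counted in AI, and for these the fitted fold change is not used below.

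**Figure D1:**
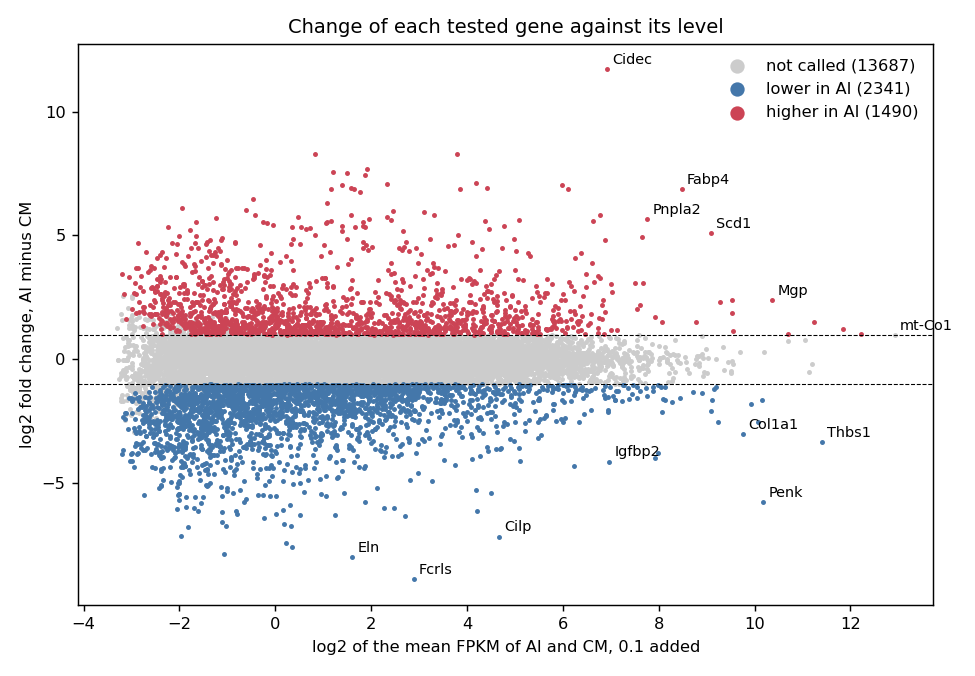
Each point is a tested gene with reads in both groups, with the log2 of its mean FPKM in AI and CM (0.1 added) on the x axis and its log2 fold change, AI minus CM, on the y axis, and dashed lines at 1 and -1. DEGs higher in AI are red, DEGs lower in AI blue and other genes grey, and among abundant genes Fabp4, Pnpla2 and Scd1 lie high while Penk, Thbs1 and Col1a1 lie low.

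Among the largest rises were genes of lipid storage that CM cells hardly transcribed. FPKM, the reads of a gene scaled to its length and to the depth of the library, is the level given for every sample. Cidec (ENSMUSG00000030278, chr6:113401595-113412721 of GRCm39, minus strand), which enlarges lipid droplets by moving lipid between them, was at 0.06, 0.06 and 0.08 FPKM in the CM samples and at 227, 251 and 243 in the AI samples. Its log2 fold change was 11.70 ± 0.20 (SE, n = 3 and 3, adjusted p = 1.18e-22), the largest among genes with reads in both groups and a mean of at least 5 FPKM in AI or CM. Thrsp, a nuclear protein of fat synthesis, went from 0.02, 0.09 and 0.11 FPKM to 26.0, 28.0 and 27.7 (8.30 ± 0.26, adjusted p = 7.93e-18). Gpd1, which makes the glycerol backbone of triglyceride, went from 0.80, 0.66 and 1.17 to 122, 132 and 124 (7.05 ± 0.11, adjusted p = 5.32e-23), and Plin1 (chr7:79369966-79382651, minus strand), the perilipin that guards the lipid droplet of fat cells, from 1.08, 0.63 and 1.49 to 136, 145 and 131 (6.89 ± 0.14, adjusted p = 2.53e-21). The largest rises were picked among genes whose AI and CM samples did not overlap, as in 65.3% of all tested genes, so that separation is no finding. The OI samples of these genes lay between the groups, for Plin1 at 3.79, 3.24 and 3.21 FPKM.

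Several of the other large rises were of genes with no read or few reads in CM. Sptlc3, a subunit of the enzyme that starts sphingolipid synthesis, had 0 reads in the 3 CM samples and 6677 in the AI samples, where it stood at 39.6, 41.2 and 44.3 FPKM, which makes it at least 2350-fold higher against a floor of 3 reads over the group. Retnla, a secreted resistin-like protein, had 0 and 2458 reads and was at 66.8, 68.0 and 83.7 FPKM in AI, at least 865-fold higher. Acot5, a peroxisomal thioesterase, had 0 and 1220 reads, at least 429-fold higher. All 3 were thus at or near silence in CM and plainly transcribed in AI. Serpina3m had 3 reads in CM and 703 in AI, a ratio of 247 with a 95% exact interval of 84.3 to 1203, and Mc2r, the receptor for corticotropin, had 3 and 459, a ratio of 162 (54.9 to 786), and these intervals cover counting error only. Serpina3m was the exception among the 15 largest rises in that its OI samples, at 5.61, 7.17 and 8.63 FPKM, overlapped its AI samples at 6.21, 7.15 and 8.41 (AI minus OI -0.06, adjusted p = 0.772). Klb, the coreceptor of FGF21, rose by 7.51, Acvr1c, a receptor of the activin family, by 6.90, Adig, a small adipocyte protein, by 6.92, Map7d2, a microtubule protein, by 7.10, and the transcript A530016L24Rik by 7.07 on the log2 scale. Acot5 and Serpina3m belong to families of close copies between which reads may have been split, and their values are uncertain to that extent.

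Among the 15 largest falls were genes of elastic fibres, of secreted peptides and of myeloid cells. Eln (chr5:134731447-134776177, minus strand), the elastin of elastic fibres, was at 5.62, 5.36 and 6.61 FPKM in CM and 0.03, 0.03 and 0.01 in AI (-7.98 ± 0.23, adjusted p = 2.00e-18). Cilp, a cartilage matrix protein, fell from 52.6, 52.2 and 46.0 to 0.38, 0.36 and 0.40 (-7.15 ± 0.13, adjusted p = 5.30e-22), while its OI samples were at 99.0, 109.8 and 106. Penk (chr4:4133531-4138819, minus strand), the precursor of the enkephalin peptides, fell from 2262, 2319 and 2231 to 47.3, 41.8 and 47.4 (-5.75 ± 0.08, adjusted p = 5.06e-24) and so left the 10 most abundant transcripts, among which it stood in CM. Scg2, whose promoter is printed above, fell from 44.6, 42.9 and 45.0 to 1.05, 1.11 and 1.23 (-5.39). Mfap4 and Mfap5, which sit on the microfibrils around elastin, changed by -6.32 and -6.13 on the log2 scale, Myoc, a secreted glycoprotein of the eye's outflow tissue, by -5.38, the gap junction gene Gjb2 by -5.99, the homeobox gene Meox1 by -5.77, the protease inhibitor Serpinb1a by -6.01, Esm1, an endothelial proteoglycan, by -4.85, and Cdsn, a cell adhesion protein of skin, by -4.89. Fcrls, Mmp12 and Cd180, best known from macrophages and other myeloid cells, changed by -8.87, -5.28 and -5.17. Fcrls was unevenly spread in CM, at 12.4, 7.51 and 23.8 FPKM, and at 0.07, 0 and 0.02 in AI. In these bulk samples fewer cells of a type and less RNA per cell cannot be told apart.

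**Figure D2:**
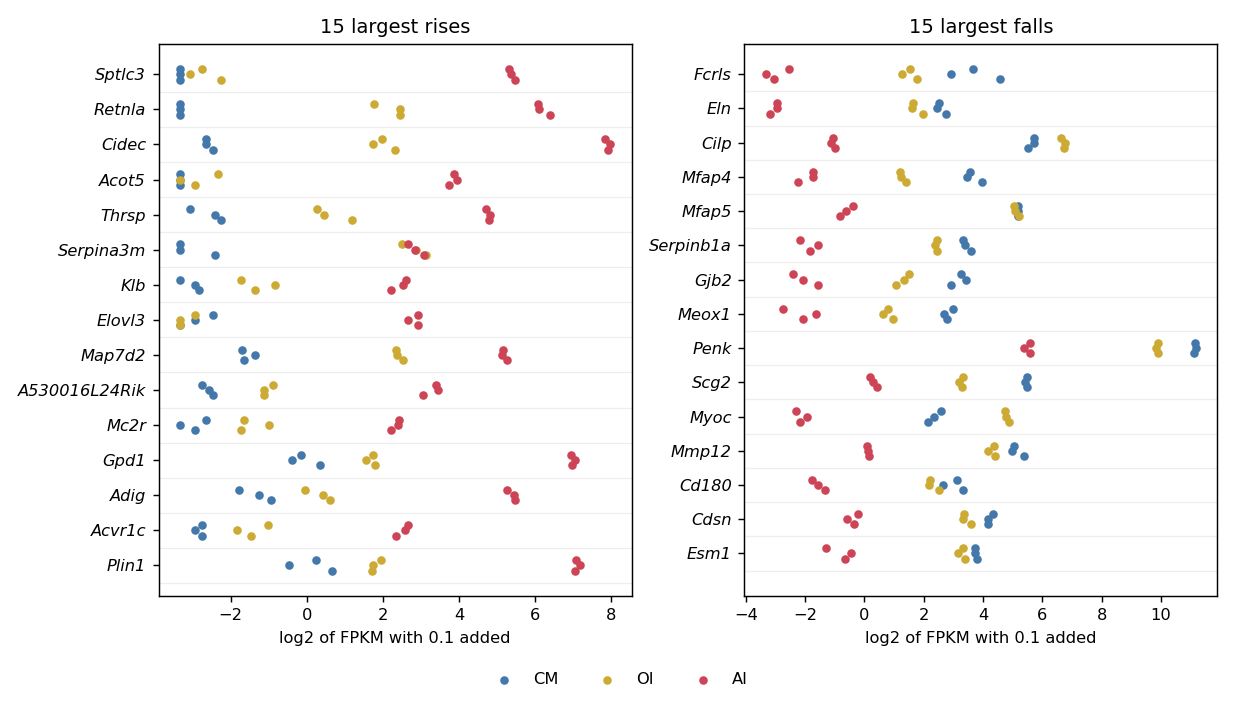
Points give the log2 of FPKM (0.1 added) of each CM, OI and AI sample for the 15 largest rises (left) and the 15 largest falls (right) of the AI against CM comparison. The AI and CM samples are apart in all of these genes by the rule that picked them. Serpina3m is the rise in which OI meets AI, and Cilp and Myoc are falls in which OI lies above CM.

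Most transcription factors of fat cell formation rose, the master regulator itself only moderately. Of 20 factors tested 13 were higher in AI and 0 lower, 7 were not called, among them Stat5b at -0.49 and Ebf1 at -0.36, and the median log2 fold change was 1.28. Cebpa went from 17.3, 16.7 and 19.6 FPKM in CM to 128, 133 and 136 in AI (2.78 ± 0.07, adjusted p = 5.46e-20), and Pparg (chr6:115337912-115467360, plus strand) from 7.92, 8.46 and 8.93 to 20.9, 22.6 and 23.9 (1.30 ± 0.09, adjusted p = 2.12e-11). Every AI sample lay above every CM sample in both genes, but the change of Pparg was well below that of its partner. The early factors Cebpb and Cebpd rose by 1.98 and 1.60. The steepest rise was that of Mlxipl, the glucose-sensing factor ChREBP, from 0.04, 0.03 and 0.10 to 7.14, 6.83 and 5.66 FPKM (6.76), and the glucocorticoid-induced factors Klf9 and Klf15 rose by 1.64 and 2.36. Srebf1, a factor of lipid synthesis, rose by 1.27, Nr1h3, an oxysterol receptor, by 1.85, and Ppargc1b, a coactivator of mitochondrial genes, by 2.90. Of 15 genes known to hold adipogenesis back, 7 were lower, 1 was higher and 7 were not called (median -0.998). Wnt10b, a WNT ligand that blocks fat cell formation, went from 1.31, 1.25 and 1.22 to 0.24, 0.21 and 0.05 FPKM (-3.05), Klf2 changed by -1.45, Sfrp2 by -1.15 and Dlk1, known as preadipocyte factor 1, by -1.02, whereas Id3 rose by 1.18. Klf3 and Zfp521, repressors of the same kind, stood at -0.998 and -0.78 and were not called. The count of lower genes in this list was 4 when limma was run on log2 FPKM with 0.1 added.

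Lipid droplet genes and lipases moved almost as a whole. Of 15 tested, 14 were higher and 1 was lower, with a median of 3.56. Pnpla2, the lipase that opens triglyceride breakdown, went from 8.07, 7.04 and 8.36 FPKM in CM to 410.3, 433 and 429 in AI (5.65 ± 0.08, adjusted p = 1.92e-23). Lipe, the hormone-sensitive lipase, rose by 5.61, Fitm2, which buds droplets from the endoplasmic reticulum, by 3.59, and both the activator Abhd5 and the inhibitor G0s2 of Pnpla2 by 2.67 and 3.56. The lone fall was that of Plin3, a perilipin of small droplets in most cells, from 17.2, 17.7 and 19.8 to 8.63, 9.87 and 10.6 FPKM (-1.02). Cidea and Fitm1 had too few reads to be tested.

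Triglyceride assembly rose with them, 10 of 15 genes higher and 1 lower at a median of 2.56. Gpat3, Agpat2 and Dgat2, which add the fatty acids to the glycerol backbone in turn, rose by 5.57, 4.81 and 4.48, and Agpat2 went from 7.19, 7.48 and 7.94 FPKM to 221, 235 and 232. The gene lower in AI was Mogat2, at 0.20, 0.42 and 0.16 FPKM in CM and 0.03, 0.18 and 0 in AI. Of 13 genes of fatty acid uptake and binding, 7 were higher and 1 lower (median 2.16). Fabp4 (ENSMUSG00000062515), the fatty acid carrier of fat cells, went from 5.47, 5.33 and 5.99 FPKM to 664, 651 and 807 (6.87 ± 0.11, adjusted p = 4.38e-23), Acsl1, which activates fatty acids, from 3.75, 3.20 and 3.68 to 214, 219 and 216 (5.82 ± 0.07, adjusted p = 7.94e-25), and Lpl, the lipase that draws fatty acids from lipoproteins, from 40.2, 35.7 and 46.4 to 363, 359.8 and 383 (3.07 ± 0.07, adjusted p = 2.93e-20). In all 3 genes the AI samples lay far above the CM samples, and Acsl4, a relative of Acsl1, rose by 2.33. Fabp3, the carrier of heart and muscle, moved the other way, from 7.37, 6.72 and 8.64 to 0.72, 0.53 and 0.75 FPKM (-3.59).

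Fatty acid synthesis was split by enzyme. Of 18 genes 8 were higher and 1 lower, and the median of 0.84 lay under the limit for a call. Scd1 (chr19:44382894-44396318, minus strand), which makes the first double bond, was at 27.7, 29.9 and 28.3 FPKM in CM and 1057, 1108 and 1006 in AI (5.09 ± 0.07, adjusted p = 2.02e-24). Fasn and Acaca, which build the chain, rose by 2.96 and 2.33, and Acss2, which makes acetyl-CoA from acetate, by 3.24. The desaturase of polyunsaturated chains, Fads2, changed by -1.75, and Scd2, the other desaturase of these cells, had a log2 fold change of -0.47, at 91.1, 91.9 and 90.8 FPKM in CM and 72.0, 72.4 and 69.8 in AI.

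Adipokines and other marks of the mature fat cell were mostly higher, 12 of 19 against 3 lower (median 2.24). Adipoq (chr16:22965286-22976778, plus strand), which encodes the hormone adiponectin, went from 3.57, 3.56 and 4.06 FPKM to 182, 195 and 203 (5.58 ± 0.10, adjusted p = 2.41e-22). Slc2a4, the insulin-regulated glucose transporter, was at 0.18, 0.12 and 0.20 in CM and 9.60, 10.6 and 9.01 in AI (5.76), and Lgals12, a galectin of the lipid droplet, rose by 5.99. Leptin (Lep) had 0 reads in CM and 0 in AI and was not tested, and the apelin gene Apln, the chemerin gene Rarres2 and the synuclein gene Sncg changed by -1.45, -1.85 and -2.35.

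Genes of oxidation rose along with those of storage, though by less. Of 22 genes of mitochondrial fatty acid oxidation, 14 were higher and 1 lower, at a median of 1.25. Acadl and Acadm, which take the first oxidation step on long and medium chains, went from 31.1, 32.3 and 32.7 to 220.1, 218 and 252 FPKM (2.73 ± 0.07, adjusted p = 4.93e-20) and from 19.6, 19.3 and 20.5 to 106, 110.4 and 121 (2.39 ± 0.07, adjusted p = 8.72e-19). Cpt2, on the inner membrane, rose by 1.60 and Pdk4, which spares glucose by blocking pyruvate dehydrogenase, by 2.40, whereas Cpt1a, the carnitine transferase that admits fatty acids to the mitochondrion, had 11.0, 10.6 and 10.7 FPKM in CM and 9.95, 10.1 and 9.48 in AI (-0.24) and was not called. The list of peroxisomal genes gave 15 higher and 0 lower of 32 (median 0.99). It includes a gene of myelin that is not peroxisomal and was not called (-0.48). Scp2, a thiolase and sterol carrier, rose by 2.38, the catalase gene Cat by 1.91 and Pex11a, which divides peroxisomes, by 2.85.

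The TCA cycle and pyruvate dehydrogenase gave 10 higher and 0 lower of 24 at a median of 0.90, with 22 higher at the same p without the limit on the fold. Citrate synthase, Cs, went from 28.1, 27.0 and 28.2 to 82.8, 84.1 and 85.0 FPKM (1.48 ± 0.05, adjusted p = 1.83e-17), and Idh3a and Dlat rose by 1.86 and 1.75. The breakdown of branched chain amino acids gave 8 higher and 1 lower of 26 (median 0.74), and here the pair of transaminases moved apart. The mitochondrial Bcat2 went from 6.73, 6.35 and 8.71 to 32.3, 32.4 and 34.7 FPKM (2.08 ± 0.08, adjusted p = 6.08e-16), and the cytosolic Bcat1 from 4.61, 5.18 and 4.43 to 2.29, 2.07 and 2.96 (-1.07 ± 0.10, adjusted p = 1.82e-09). Aldh6a1, Bckdhb and Dld, which act further down the same pathway, rose by 1.899, 1.91 and 1.24.

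Most subunits of the respiratory chain were higher in AI by less than the limit for a call. Of 72 subunits encoded in the nucleus 11 were DEGs higher in AI and 0 were lower, but 65 were higher and 0 lower at an adjusted p of at most 0.05 whatever the fold, against 28.5% and 30.5% of all genes, and the median was 0.72, with a range from 0.0181 to 2.17. The count of DEGs was 17 with library size scaling in place of TMM. Cycs, cytochrome c, had the largest change, from 10.6, 9.66 and 10.3 to 47.6, 45.2 and 55.9 FPKM (2.17 ± 0.09, adjusted p = 1.64e-15), and Uqcrfs1 and Cyc1 of complex III and Ndufv1 of complex I rose by 1.31, 1.44 and 1.14. Of the 13 messages encoded in mitochondrial DNA 8 were DEGs, all higher, all 13 passed the p, and the median was 1.02. The share of all counted reads assigned to genes of mitochondrial DNA was 1.95% to 2.01% in CM, 2.14% to 2.27% in OI and 4.29% to 4.68% in AI. In CM and AI nearly all of the summed FPKM of the 13 messages came from mt-Co1, mt-Cytb, mt-Nd1, mt-Nd2, mt-Nd4, mt-Nd5 and mt-Nd6. The other messages stood far lower, so the share may miss part of this genome, and the cause was not tested. mt-Nd2, a subunit of complex I, went from 1185, 1201 and 1167 FPKM to 3734, 3404 and 3852 (1.52 ± 0.06, adjusted p = 1.37e-15). mt-Co1, the gene with the highest mean FPKM in both groups, went from 4904, 5049.7 and 4926 to 10733, 10165 and 10684 (0.97) and was not called, and mt-Nd1, mt-Cytb and mt-Nd4 rose by 1.22, 1.02 and 1.02. These genes lie at the limit on the fold, since mt-Co1 was called at 1.09 with library size scaling, and mt-Cytb and mt-Nd4 were not called without AI replicate 3, CM replicate 1 or CM replicate 3, at 0.96 to 0.99. mt-Nd5 and mt-Nd6, at 0.80 and 0.76, lie on opposite strands side by side, and whether reads were counted by strand is not stated.

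Genes of brown fat, the heat-producing kind, were higher in 8 of 12 tested cases and lower in 0 (median 2.35), but mostly at low levels. Dio2, whose promoter is printed above, went from 7.78, 7.23 and 9.65 FPKM to 55.5, 52.3 and 51.0 (2.58 ± 0.10, adjusted p = 1.67e-16), Ppargc1a, the coactivator of mitochondrial biogenesis, from 0.35, 0.41 and 0.26 to 3.58, 3.61 and 3.52 (3.29) and the elongase Elovl3 from 0.08, 0.03 and 0 to 7.48, 6.23 and 7.5 (7.45). Kcnk3, a potassium channel, rose by 3.91 at under 1 FPKM. The defining gene Ucp1 had 2 reads in CM and 15 in AI, a ratio of 7.92 with an exact interval of 1.84 to 71.4, and stood at 0.26, 0.10 and 0.13 FPKM in AI. Prdm16, which commits cells to brown fat, had a log2 fold change of -0.08 (adjusted p = 0.702). The list gave 5 higher genes with only the 6 samples in the fit.

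Glycolysis and cholesterol synthesis did not move as groups. Of 20 glycolytic genes 3 were higher and 1 was lower (median -0.02), against 8.68% and 13.5% of all genes. Those called were Slc16a1, a lactate and pyruvate carrier (2.17), Pfkfb3, which speeds up glycolysis (1.65), Hk2, a hexokinase (1.53), and Aldoc, an aldolase of brain (-3.55). At an adjusted p of at most 0.05 without the limit on the fold 8 were higher and 7 lower. Among those not called, Pkm was at 189, 177 and 186 FPKM in CM and 189.8, 200.3 and 206 in AI. Pgk1 was at 142, 136 and 143 in CM and 136, 141 and 160.1 in AI, and Pfkp, a phosphofructokinase, stood at -0.80 on the log2 scale. Of 24 sterol genes 5 were higher and 3 lower (median -0.25), against the same 8.68% and 13.5%. Insig1, the brake on sterol synthesis, rose from 18.9, 17.9 and 18.9 to 102, 113 and 104 FPKM (2.40 ± 0.06, adjusted p = 8.48e-20), and Cyp51, Dhcr7 and Hmgcs1 of the pathway itself rose by 1.51, 1.71 and 1.21. At the same p without the limit on the fold 13 were lower and 11 higher, and the 3 DEGs that fell are not reported here.

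**Figure D3:**
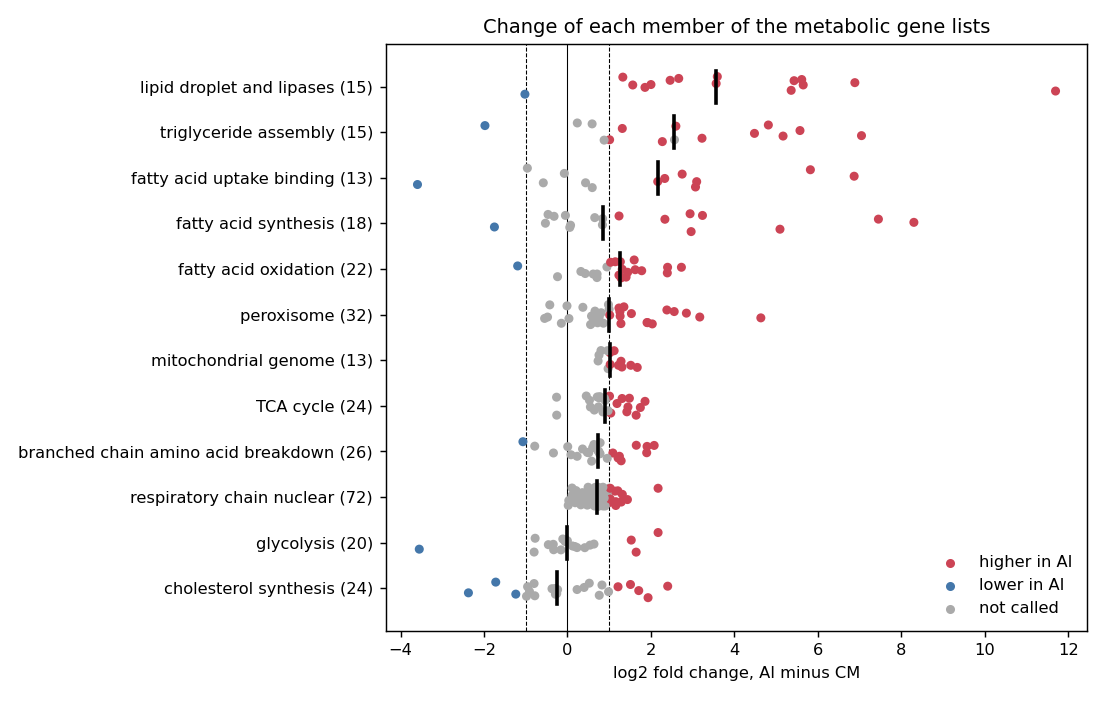
Each point is a tested member of a metabolic gene list, placed by its log2 fold change, AI minus CM, with the number of members in parentheses, a black bar at the median, dashed lines at 1 and -1, and random vertical spread for display. Lipid droplet genes have the highest median (3.56) and reach up to Cidec, the nuclear respiratory chain has its median at 0.72, and glycolysis and sterol synthesis centre near 0.

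Genes known to answer to glucocorticoid or cAMP are given with the OI samples beside them, which also received dexamethasone, although no comparison isolates a single agent. AI and OI were each set against the same 3 CM samples, so these differences share them, and AI minus OI was tested directly in the same fit, with 7.8% of all genes called higher in AI than in OI and 14.1% lower, and OI had 3.55% of all genes higher than CM. Of 20 glucocorticoid targets AI raised 16 over CM and lowered 0 (median 2.08), OI raised 14 of them over CM, and the direct test put 5 of them higher and 1 lower in AI than in OI. Fkbp5, a chaperone partner of the receptor, was at 1.83, 1.5 and 1.53 FPKM in CM, 29.4, 29.0 and 28.0 in OI and 36.2, 39.6 and 38.4 in AI (AI minus CM 4.44 ± 0.07, adjusted p = 4.38e-23 and AI minus OI 0.31, adjusted p = 6.16e-05). Tsc22d3, known as GILZ, was at 10.9, 10.6 and 11.1 in CM, 84.7, 92.7 and 93.5 in OI and 92.3, 98.6 and 102 in AI (AI minus CM 3.05, AI minus OI 0.02, adjusted p = 0.808). Sgk1, whose promoter is printed above, was at 30.1, 27.1 and 27.2 in CM, 128, 131 and 153 in OI and 134, 131 and 144 in AI (AI minus CM 2.17, AI minus OI -0.10, adjusted p = 0.221). OI and AI thus overlapped in Sgk1 and Tsc22d3 and stood apart in Fkbp5, where AI was higher by a step below the limit on the fold. Glul, glutamine synthetase, and the metallothionein gene Mt2 rose by 3.13 and 4.95 against CM and were above OI by 1.08 and 1.96. Errfi1 rose by 3.43 against CM and was 0.71 above OI on the log2 scale, and the receptor gene Nr3c1 itself was at 31.3, 31.6 and 30.1 FPKM in CM and 18.1, 17.9 and 15.98 in AI (-0.95, not called). Mt2 and its neighbour Mt1 are close copies.

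Targets of cAMP, the messenger that IBMX keeps from being broken down, behaved differently between the 2 inducing media. Of 17 tested, AI raised 14 over CM and lowered 1 (median 2.50), OI raised 3 over CM (3.55% of all genes), and 13 stood higher in AI than in OI with 0 lower. Pde3b, a phosphodiesterase of fat cells, was at 2.59, 3 and 2.77 FPKM in CM, 2.79, 2.71 and 2.53 in OI and 64.5, 62.6 and 59.3 in AI (AI minus CM 4.37 ± 0.07, adjusted p = 4.32e-23 and AI minus OI 4.45, adjusted p = 7.11e-23). Pde4d and Pde7b, also phosphodiesterases, rose by 3.46 and 2.57 against CM and were above OI by 3.33 and 2.27, and Prkar2b, a regulatory subunit of the cAMP-dependent kinase, rose by 2.64 and was above OI by 2.12. CM and OI lay nearer to each other than either lay to AI in these genes. The rapid genes were not all higher, since Fos was at 19.8, 4.92 and 5.59 FPKM in CM and 12.3, 13.1 and 12.2 in AI (0.20, adjusted p = 0.657), CM replicate 1 lying above all AI samples. Atf3 changed by -1.15. Dio2 was lower in OI, at 2.56, 2.57 and 2.56 FPKM, than in CM (OI minus CM -1.70, adjusted p = 2.09e-11) and 4.28 higher in AI than in OI.

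Insulin and IGF genes split into a rising and a falling set of 6 each among 20. Irs2, an adaptor of the insulin receptor, went from 3.06, 2.88 and 2.78 to 19.4, 20.1 and 17.3 FPKM (2.59 ± 0.07, adjusted p = 3.04e-19). Among the IGF binding proteins Igfbp2 fell from 233, 238 and 237 to 14.8, 13.0 and 15.9 FPKM (-4.13 ± 0.08, adjusted p = 3.33e-21) and Igfbp4 from 135, 139 and 146 to 30.9, 32.8 and 34.9 (-2.20 ± 0.06, adjusted p = 1.64e-18). Igfbp3, by contrast, rose from 28.5, 30.5 and 28.6 to 117, 121 and 124 (1.94 ± 0.07, adjusted p = 4.94e-17), and Igf1 itself rose by 1.83. Pappa2, a protease that frees IGF from its binding proteins, changed by -4.04.

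**Figure D4:**
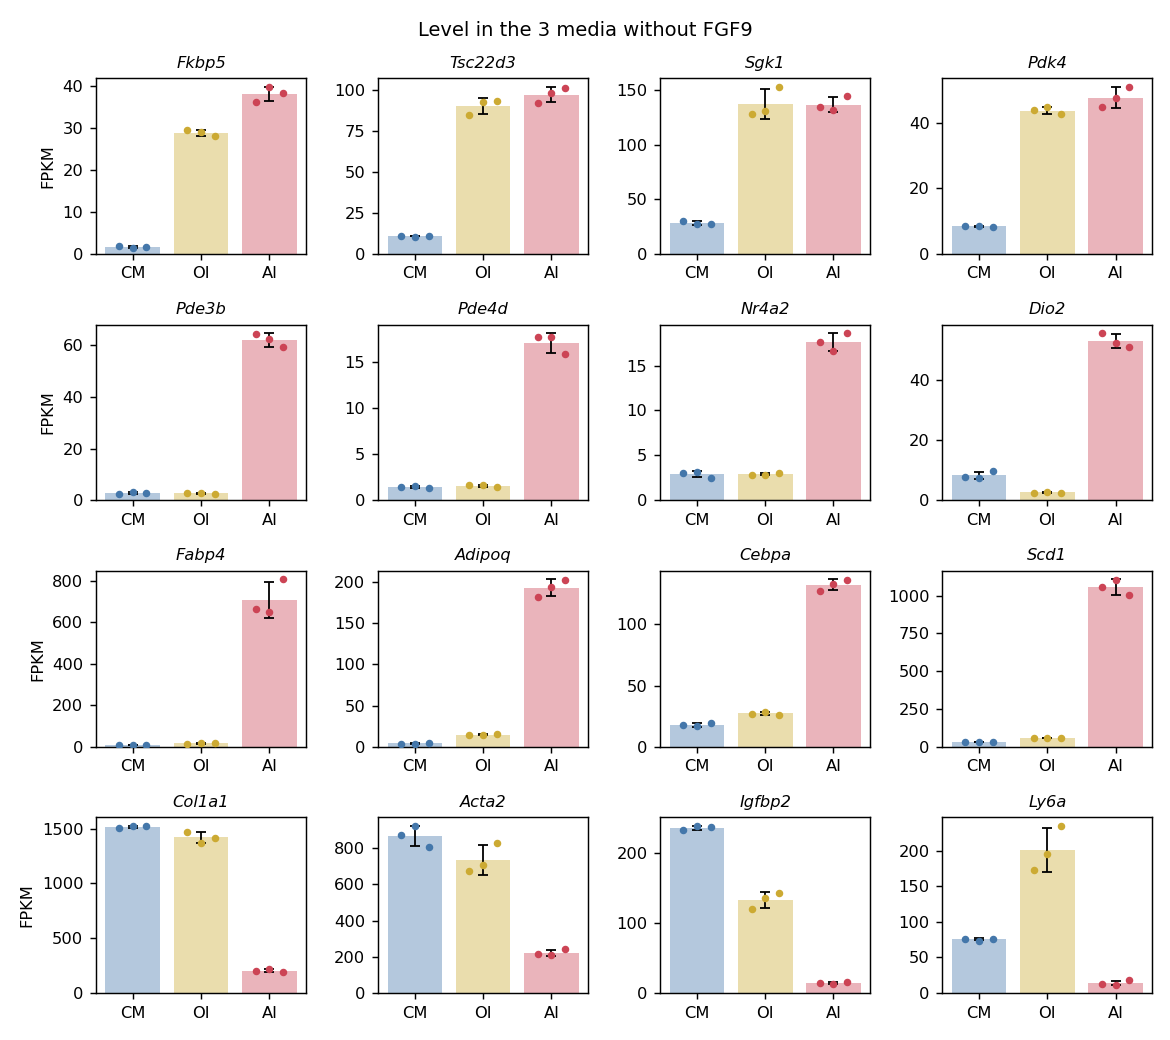
Bars give the mean FPKM with its SD and points the 3 samples of CM, OI and AI without FGF9 for 16 genes, on linear axes from 0 that differ between panels. Fkbp5, Tsc22d3, Sgk1 and Pdk4 are high in OI and AI, the 8 genes from Pde3b to Scd1 are highest in AI, and Col1a1, Acta2, Igfbp2 and Ly6a are lowest in AI.

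Genes of the matrix that stromal cells lay down were lower in AI than in CM. Of 17 fibrillar and associated collagens 9 were lower and 1 higher (median -1.21). Col1a1 (ENSMUSG00000001506, chr11:94827050-94843868, plus strand), the main chain of bone and tendon collagen, was at 1506, 1524 and 1522 FPKM in CM and 199.8, 218 and 192 in AI (-3.01 ± 0.07, adjusted p = 4.05e-20), and at 1471, 1372 and 1419 in OI. Its partner Col1a2 changed by -2.51, Col5a2 by -2.11 and Col8a1, of short-chain networks, by -4.29, while Col7a1, the anchoring fibril of skin, rose by 1.36 from 0.56, 0.65 and 0.50 FPKM. The collagen VI genes, at log2 fold changes of -0.35, -0.25 and -0.55 for Col6a1, Col6a2 and Col6a3, were not called. Of 20 genes that modify collagen, 7 were lower and 1 higher (median -0.65). Lox, which crosslinks collagen and elastin, fell from 1528, 1549 and 1382 to 475, 464 and 447 FPKM (-1.80 ± 0.07, adjusted p = 4.18e-16), and Loxl1, the chaperone gene Serpinh1 and Pcolce by -1.88, -1.73 and -1.55. Loxl2 was the gene that rose (1.004).

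Matrix glycoproteins had the largest share of falls in this group, 21 of 32 against 1 rise (median -1.50). Thbs1 (chr2:117942357-117957614, minus strand), a thrombospondin that activates TGF-beta and was among the most abundant genes of CM, went from 4831, 5168 and 4691 FPKM to 522, 545 and 494 (-3.35 ± 0.07, adjusted p = 1.18e-20). Fn1, fibronectin, fell from 1830.0, 1894 and 1669 to 367, 361 and 289.9 (-2.52 ± 0.11, adjusted p = 1.39e-15), with the OI samples between at 869, 814 and 729.8. Both genes were far outside the spread of the replicates. Fbln5, which assembles elastic fibres, changed by -3.04 and Ccn4, a WNT-induced matrix protein, by -2.73, while Vcan, a large proteoglycan, was the rise, from 12.6, 13.4 and 12.0 to 95.4, 93.3 and 77.2 FPKM (2.69 ± 0.10, adjusted p = 2.26e-16). Osteoglycin, Ogn, at 700.0, 774 and 691 FPKM in CM and 768, 738 and 763 in AI (-0.05, adjusted p = 0.564), is an example of an abundant matrix gene that did not pass the test. Basement membrane genes gave 10 lower and 2 higher of 22 (median -0.81). Col4a5 and Lama2 changed by -3.95 and -2.98 and Lamb2 by -1.32, and the rises were Col15a1 (2.46) and Lamb1 (1.23).

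Smooth muscle and stress fibre genes fell and none rose, 11 of 18 lower at a median of -1.69. Acta2, the actin of myofibroblasts, went from 872, 922 and 809.9 FPKM in CM to 213, 211 and 242 in AI (-2.08 ± 0.10, adjusted p = 9.60e-15), with OI at 675, 706 and 829. Tagln, Cnn1 and Tpm1, all proteins of actin filaments, changed by -2.41, -2.95 and -1.65, and Actg2 by -3.28. Of the regulators of this programme Srf stood at -0.18, Yap1 at -0.03 and Tead1 at -0.02 on the log2 scale, none of them called, whereas the coactivator gene Myocd fell, with 25 reads in CM and 2 in AI, a ratio of 11.8 (2.95 to 103). Of 21 targets of YAP and SRF 7 were lower and 0 higher (median -0.60). Ankrd1 fell from 5.16, 5.43 and 3.97 to 0.26, 0.21 and 0.21 FPKM (-4.51 ± 0.21, adjusted p = 1.24e-14), Axl by -2.10, Zyx by -1.27 and Nt5e by -1.41, whereas Ccn1, a usual target, was at 386, 297 and 282 FPKM in CM and 339, 337 and 352 in AI (-0.02, adjusted p = 0.896).

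Bone transcription factors did not fall as a group. Of 18 factors of osteoblasts 5 were higher and 3 lower (median 0.17), against 8.68% and 13.5% of all genes. Runx2 (chr17:44806874-45125684, minus strand), the factor that commits cells to bone, was at 8.98, 8.5 and 9.25 FPKM in CM and 10.6, 10.5 and 9.85 in AI (0.10 ± 0.08, adjusted p = 0.292), and Dlx5 at 5.2, 5.96 and 6.16 in CM and 7.77, 8.30 and 8.07 in AI (0.37 ± 0.13, adjusted p = 0.0157), so neither was called. Sp7, which acts after Runx2, fell from 5.61, 6.19 and 7.14 to 3.19, 2.83 and 3.07 FPKM (-1.17 ± 0.10, adjusted p = 3.56e-10), a call that was lost with limma on log2 FPKM plus 0.5 (-0.94) or plus 1 (-0.86). Mef2c changed by -1.27 and Alx4 by -1.74, while Snai1 and Msx1 rose by 1.26 and 2.06, Lef1 by 1.85, Twist2 by 1.20 and Dlx3 by 1.03, all of them but Snai1 from under 1 FPKM.

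Among 26 genes of osteoblast and mineral function 8 were lower and 5 higher (median -0.46), against 13.5% and 8.68% of all genes. At the same p without the limit on the fold 13 were lower and 8 higher. In the direct test 14 were lower and 4 higher in AI than in OI (median -1.06), against 14.1% and 7.8% of all genes. Some of the rises over CM were large. Vdr, the vitamin D receptor, went from 3.37, 3.66 and 3.46 FPKM to 71.8, 76.7 and 72.4 (4.29 ± 0.07, adjusted p = 1.10e-22). Alpl, the alkaline phosphatase that frees phosphate for mineral, rose from 23.9, 24.9 and 28.5 to 59.3, 58.6 and 60.3 (1.09 ± 0.07, adjusted p = 8.51e-12) and lay beside OI, at 60.3, 53.2 and 52.2 (AI minus OI 0.02, adjusted p = 0.867). Mgp, a matrix protein that blocks mineral, rose from 373, 379.9 and 437 to 2134, 2050.2 and 2507 FPKM (2.38) and entered the 10 most abundant genes, and Ibsp, bone sialoprotein, rose by 1.71 with CM replicate 3 above its fellows at 79.9, 81.0 and 162. The pair that sets osteoclast formation moved in opposite directions. Tnfsf11, which encodes RANKL, rose from 2.67, 2.50 and 2.88 to 17.9, 16.4 and 19.3 FPKM (2.63 ± 0.10, adjusted p = 3.90e-16), and Tnfrsf11b, which encodes its decoy receptor osteoprotegerin, fell from 46.4, 47.6 and 48.6 to 4.52, 4.46 and 3.82 (-3.59 ± 0.08, adjusted p = 3.39e-20). Sparc, osteonectin, changed by -1.62 and Bmp4 by -3.22. Spp1, osteopontin, was at 694, 659 and 1101 FPKM in CM and 623, 572 and 705 in AI (-0.48 ± 0.13, adjusted p = 0.00229) and was not called. Bglap, osteocalcin, shares reads with its copy Bglap2, and at 2.08, 1.92 and 5.44 FPKM in CM and 0.87, 2.31 and 2.41 in AI it was not called either.

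Cartilage genes were lower in 10 of 17 cases and higher in 1 (median -1.38). Col2a1, the collagen of cartilage, went from 38.0, 40.7 and 37.6 to 8.47, 9.03 and 8.47 FPKM (-2.28 ± 0.09, adjusted p = 5.37e-16), Comp changed by -1.57 and Col10a1 by -2.80, and Prg4, the lubricin of joint surfaces, rose from 19.9, 21.3 and 20.6 to 92.9, 89.1 and 86.2 (2.004 ± 0.07, adjusted p = 7.86e-17). Sox9, their master regulator, had a log2 fold change of -0.35.

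**Figure D5:**
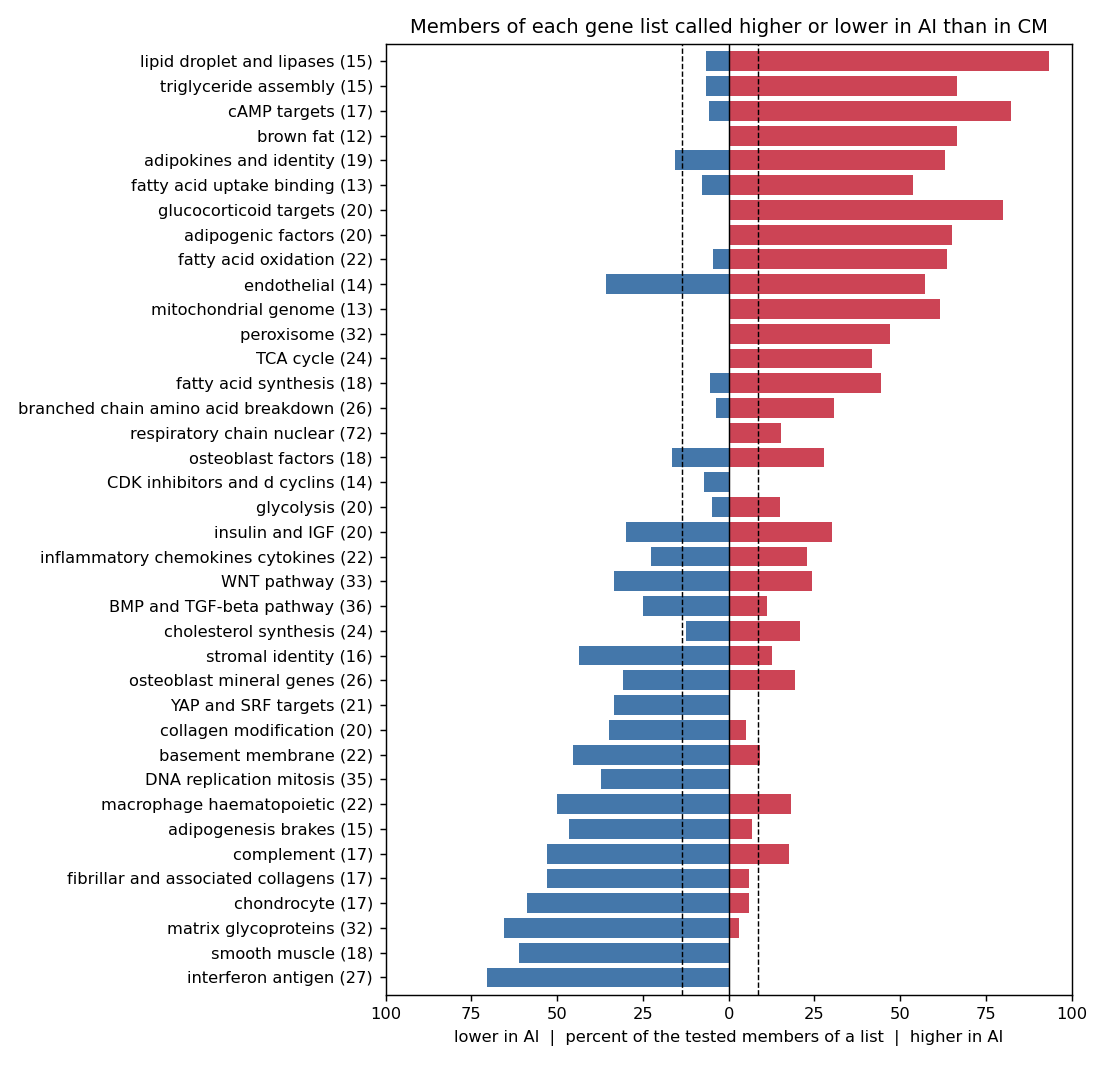
Bars give the percent of the tested members of each gene list (their number in parentheses) called higher (red, to the right) or lower (blue, to the left) in AI than in CM, ordered by the median log2 fold change, with dashed lines at the percent of all genes called, 8.68 higher and 13.5 lower. Lipid droplet, triglyceride assembly and cAMP target lists stand at the top, interferon, smooth muscle and matrix glycoprotein lists at the bottom. The skeletal muscle and erythroid lists are left out for having too few tested members.

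WNT genes had no common direction, with 8 higher and 11 lower of 33 (median -0.22), against 8.68% and 13.5% of all genes. Rspo2, which strengthens WNT signals, fell from 65.7, 67.4 and 63.4 to 12.0, 13.3 and 13.3 FPKM (-2.46 ± 0.08, adjusted p = 1.39e-17), and the inhibitors Dkk2 and Frzb changed by -2.22 and -2.81. The receptor gene Fzd4 rose by 1.96, and the WNT-induced gene Axin2 from 0.35, 0.60 and 0.63 to 2.04, 1.73 and 1.78 FPKM (1.70). The BMP and TGF-beta pathway gave 9 lower and 4 higher of 36 (median -0.24), against 13.5% and 8.68% of all genes. Bmp4 went from 53.8, 52.5 and 52.3 to 5.57, 6.79 and 6.00 FPKM (-3.22 ± 0.09, adjusted p = 5.50e-19), the inhibitor Chrdl1 changed by -3.43, and Tgfbr3, a coreceptor, rose by 1.82, as did Gdf5, Gdf6 and Id3 by 4.17, 1.86 and 1.18.

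Stromal markers were present in both groups but shifted. Of 16 genes 7 were lower and 2 higher (median -0.43). Thy1 went from 31.4, 32.9 and 31.6 to 1.80, 2.51 and 2.10 FPKM (-4.02 ± 0.09, adjusted p = 7.90e-21), and Ly6a, which encodes Sca-1, from 75.9, 73.6 and 76.4 to 12.4, 11.7 and 17.7 (-2.54 ± 0.13, adjusted p = 1.10e-13) while OI stood at 173, 196 and 235. Cxcl12, the chemokine of marrow stroma, fell from 363, 369.8 and 382 to 183, 186 and 189.7 (-1.11), and stood at -0.998, short of a call, with library size scaling. Cspg4 changed by -3.23, and the markers Lepr and Mcam rose by 2.21 and 2.27. Pdgfra, at 27.8, 28.8 and 28.9 FPKM in CM and 58.5, 57.0 and 56.8 in AI, and Prrx1, at 73.9, 76.6 and 73.1 in CM and 92.6, 89.9 and 87.7 in AI, were not called.

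The cultures also held transcripts of macrophages, and these moved with the medium. Of 22 macrophage and haematopoietic markers 11 were lower and 4 higher in AI (median -0.89). Their summed level was 840, 629 and 1051 FPKM in CM and 1493 to 1730 in AI, since Lyz2, lysozyme, outweighed the rest, at 307, 223 and 365 FPKM in CM and 1149, 1103 and 1294 in AI (1.88 ± 0.11, adjusted p = 1.64e-12). Ptprc, which encodes CD45, fell from 3.72, 2.83 and 4.32 to 1.20, 1.02 and 1.14 FPKM (-1.80 ± 0.12, adjusted p = 1.41e-11), and the receptor genes Csf1r and Adgre1 by -1.27 and -1.43. The fractalkine receptor gene Cx3cr1 had 629 reads in CM and 3 in AI, a ratio of 199 (67.6 to 965.5), and Cd74, of antigen presentation, 159 and 0, at least 50.2-fold lower. C1qa and C1qb rose by 1.89 and 1.56. CM replicate 2 was the lowest of its group in 21 of the 22 genes, and the part of these cells in the other results was not tested.

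Endothelial markers were at low levels, 8 of 14 higher and 5 lower (median 1.11), and 5 were higher without CM replicate 2. Pecam1 was at 0.84, 0.61 and 0.96 FPKM in CM and 1.55, 2.32 and 1.83 in AI, Egfl7 rose by 2.11 and Kdr by 1.11, Cd34 fell from 11.7, 11.2 and 9.74 to 0.70, 0.83 and 0.82 (-3.90 ± 0.09, adjusted p = 3.41e-20) and Vwf, von Willebrand factor, by -3.94. Of 11 skeletal muscle genes 5 could be tested, with Acta1 and Des lower (-3.23 and -1.34) and Mylpf higher (1.64), Tnnt3 at -0.49 not called, and the defining factors Myod1 and Myog under the filter. Of 7 erythroid genes only Alas2 was tested (1.27, adjusted p = 0.0492), at 0.40, 0.43 and 0.28 FPKM in AI, and the globin genes were under the filter.

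Interferon-induced and antigen presentation genes were lower in 19 of 27 cases and higher in 0 (median -2.08), or in 10 with voom. B2m, the light chain of MHC class I, went from 578, 564 and 604 FPKM to 248, 229.8 and 289 (-1.30 ± 0.12, adjusted p = 2.27e-09), and Ifit2, Psmb8 and Ddx58 changed by -2.15, -2.03 and -1.67, while H2-D1, a heavy chain of MHC class I, stood at -0.64 and was not called. Mx1 had 37 reads in CM and 0 in AI, at least 11.7-fold lower, and Mx2 had 95 and 1, a ratio of 90.0 (15.8 to 3591). OI replicate 1 stood apart from its group for these genes, with Isg15, a ubiquitin-like protein, at 4.17, 35.2 and 41.1 FPKM and Oasl2 at 1.92, 12.4 and 13.2, and the error of these genes was large (Isg15 -4.05 ± 1.36 in AI against CM, adjusted p = 0.0139). Against OI 22 of the 27 genes were lower in AI, and also 22 without OI replicate 1, where the differences in Isg15 and Oasl2 were -7.03 and -7.05 in place of -6.51 and -6.55. Of the 22 macrophage and haematopoietic markers 11 were lower and 4 higher in AI, and their summed level was higher, as given above. Their part in these counts was not tested.

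Complement genes were more often lower than higher, and chemokine genes had no common direction. Of 17 complement genes 9 were lower and 3 higher (median -1.02), with C1s1 and C1ra, the proteases of the classical pathway, changing by -3.69 and -3.62 and Serping1, their inhibitor, by -2.64, while C3 rose from 6.15, 4.15 and 5.43 to 35.6, 37.8 and 32.5 FPKM (2.64 ± 0.09, adjusted p = 5.30e-17) and Cfd, adipsin, from 1.17, 0.95 and 1.48 to 13.6, 13.6 and 13.6 (3.38 ± 0.24, adjusted p = 3.30e-11), below its OI level of 21.2, 21.2 and 30.4. Of 22 chemokines and cytokines 5 were higher and 5 lower (median -0.13). Lcn2, an iron-scavenging lipocalin, rose from 1.14, 1.10 and 1.15 to 31.1, 33.9 and 33.7 FPKM (4.75 ± 0.10, adjusted p = 1.03e-20), Cxcl14 by 1.80, Cxcl1 by 1.85 and Il6 by 1.70, and Cxcl13 had 0 reads in CM and 100 in AI, at least 35.2-fold higher. Ptgs2, the inducible cyclooxygenase, changed by -2.10, and Ccl2, Ccl7, Ccl5 and Tslp changed by -2.17, -1.23, -2.78 and -1.09. Csf1, the growth factor of macrophages, stood at -0.72 and was not called.

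Genes of DNA replication and mitosis were lower by a modest step, 13 of 35 DEGs lower and 0 higher (median -0.86), with 28 lower and 2 higher at an adjusted p of at most 0.05. The count of DEGs was 5 with library size scaling, 7 with voom and 7 without CM replicate 3. Mki67, the marker of cycling cells, went from 21.9, 16.7 and 21.4 to 6.84, 7.39 and 5.99 FPKM (-1.68 ± 0.08, adjusted p = 5.05e-14), and Ccna2 and Top2a changed by -1.32 and -1.10, while Kif20a, at -0.88, was not called. Pcna, at 32.4, 28.5 and 33.1 FPKM in CM and 37.3, 32.8 and 40.0 in AI, was not called either. Of 14 cyclin D genes and cell cycle inhibitors 1 was called, against 22.2% of all genes. It was Ccnd1, which drives entry into the cycle and went from 79.7, 82.7 and 81.6 to 18.01, 18.8 and 18.8 FPKM (-2.25 ± 0.05, adjusted p = 4.70e-20). The inhibitor genes Cdkn1c, Cdkn2b and Cdkn2c had log2 fold changes of 0.88, 0.74 and 0.63.

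Of the 10 genes with the highest level in CM, Thbs1, Penk, Fn1, Sparc and Col1a1 fell, and mt-Co1, mt-Cytb, mt-Nd1, Eef1a1 and Rn18s-rs5 completed the set. Eef1a1, an elongation factor, was at 2435, 2426 and 2349 FPKM in CM and 2263, 2228 and 2458 in AI (-0.17), a small difference whose sign depended on the normalization, being 0.84 with voom. Rn18s-rs5, a ribosomal RNA gene, was at 2781, 2621 and 2190.1 FPKM in CM and 1912, 2052 and 1874 in AI (-0.49).

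When AI was set against OI directly, 3859 genes were DEGs (21.9%), 1376 of them higher in AI (7.8%) and 2483 lower (14.1%). This comparison shares the AI samples with that against CM and is no independent support for it. Among the DEGs of AI against CM, those furthest above OI were Sptlc3, Elovl3, Acot5, ENSMUSG00002075787, B430219N15Rik and Cidec. Elovl3 was at 0.03, 0 and 0 FPKM in OI, and ENSMUSG00002075787 was uneven in AI, at 0.95, 8.74 and 5.92 FPKM, with 4 reads in CM and 33 in AI. B430219N15Rik went from 0.17, 0.25 and 0.05 FPKM in OI to 10.1, 11.6 and 9.39 in AI (5.93, adjusted p = 2.29e-14). Those furthest below were Cilp, Myoc, Hspb7, Oasl2, Isg15 and Pappa2. Myoc was at 5.90, 5.04 and 4.35 FPKM in CM, 26.9, 27.5 and 29.1 in OI and 0.10, 0.16 and 0.12 in AI (AI minus OI -7.81, adjusted p = 1.07e-19), and Hspb7, a small heat shock protein of muscle, at 6.38, 7.02 and 6.49 in CM, 31.6, 32.4 and 41.0 in OI and 0.27, 0.32 and 0.43 in AI (AI minus OI -6.76, adjusted p = 7.41e-20). Both genes thus moved up in OI and down in AI from the level of CM.

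By the pathway annotation that the authors deposited with the counts, 658 of 7142 annotated genes were higher in AI (9.21%) and 928 lower (13.0%). PPAR signaling had 37 of 65 genes higher and 9 lower, propanoate metabolism 19 of 39 and 0, fatty acid metabolism 31 of 65 and 3, degradation of valine, leucine and isoleucine 21 of 54 and 3, and the peroxisome 31 of 90 and 4. ECM-receptor interaction had 5 of 86 higher and 36 lower.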

How the data were processed

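RNA was measured by poly(A) RNA sequencing in 18 samples, 3 in each of 6 groups. According to the submitters' processing notes the reads were trimmed (cutadapt 1.9.1), mapped to GRCm39 (HISAT2 2.2.1) and assigned to genes (HTSeq 0.6.1), and how strand was treated was not given in these sources. The deposited counts are whole numbers of reads for each of 56691 genes. The deposited FPKM values were recomputed from these counts and the listed exon lengths, and all were matched, within 1% for values of at least 5 and within 0.01 FPKM below. The tests used the counts, and FPKM served for levels only. Differential expression was fitted with edgeR 4.0.16 (R 4.3.3) by the quasi-likelihood method on all 18 samples with 1 mean per group, TMM scaling, filterByExpr and Benjamini-Hochberg adjustment over 17631 genes. All adjusted p values come from this fit. The method was afterwards run on counts simulated with the spread of the fit, and no result given here rests on that run. Exact permutation of 3 against 3 samples cannot go below p = 0.1 and was not used. The alternatives were DESeq2 1.42.0, RLE and library size scaling, limma 3.58.1 on log2 FPKM plus 0.1, 0.5 or 1, voom with quantile normalization, no filter, a filter of 1 CPM in at least 3 of the 6 samples, a fit to the 6 samples alone, a replicate block, and leaving out each replicate. A floor of 3 reads over a group gave the bounds for genes without reads. Promoters came from RefSeq's GRCm38.p6 table, and no coordinate was carried over between builds.

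The genes named were the 15 largest rises and 15 largest falls among DEGs whose mean reached 5 FPKM in AI or CM and whose samples did not overlap, the 4 members of each list with the lowest adjusted p and all that passed where 5 or fewer did, the genes the study names, the 10 most abundant genes of AI and of CM, and the 6 DEGs furthest from OI in each direction. The members and lists were chosen with earlier results of these data known. The following genes lie outside that rule and were chosen after their values were seen: Abhd5, Acaca, Acta2, Adgre1, Alx4, Apln, Atf3, Axin2, Bcat1, Bglap, Bglap2, C1qb, Ccl2, Ccl5, Ccl7, Ccn1, Cd74, Cebpb, Cebpd, Cfd, Col6a1, Col6a2, Col6a3, Col7a1, Cpt1a, Csf1r, Cxcl1, Cxcl13, Ddx58, Dlk1, Dlx3, Ebf1, Errfi1, Fabp3, Fads2, Fos, G0s2, Gdf5, Gdf6, Ibsp, Igf1, Igfbp3, Il6, Klf2, Lamb1, Lef1, Lepr, Lipe, Loxl2, Ly6a, Mogat2, Mt1, Mx1, Mx2, Myocd, Nr1h3, Nr3c1, Ogn, Pcna, Pdgfra, Pecam1, Pgk1, Pkm, Plin3, Ppargc1b, Prdm16, Prrx1, Rarres2, Scd2, Sgk1, Sncg, Sox9, Srebf1, Srf, Stat5b, Tead1, Tnfsf11, Tslp, Twist2, Ucp1, Vcan, Wnt10b and Yap1. Some genes are not reported here.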

Additional observations from a re-analysis of the deposited data

Results flagged for a closer look

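The response to adipogenic medium differed with FGF9 (20 ng/ml) for 5 of the 10 genes that the study names, by an interaction term in the edgeR fit and a difference of at least 1 on the log2 scale. The share of all genes that differ in this way was not counted, so this number has no baseline. Sp7, Dlx5 and Spp1 passed an adjusted p of 0.05 but not the limit on the fold, at -0.80, -0.75 and -0.48. Adipoq and Cebpa passed neither. For Alpl the log2 fold change of AI against CM was 1.09 without and 3.65 with FGF9, a difference of 2.55 ± 0.16 (SE, n = 3 per group, adjusted p = 1.74e-11), and its mean levels were 25.8 FPKM in CM, 59.4 in AI, 0.41 in CM with FGF9 and 4.56 in AI with FGF9. For Pparg the values were 1.30 and 2.48, a difference of 1.17 ± 0.13 (adjusted p = 9.85e-08). The difference went the other way for Col1a1, from -3.01 to -4.74 (-1.72 ± 0.10, adjusted p = 1.33e-12), for Plin1, from 6.89 to 5.26 (-1.62 ± 0.18, adjusted p = 7.83e-08), and for Runx2, from 0.10 to -0.92 (-1.02 ± 0.11, adjusted p = 1.16e-07). Plin1 was nevertheless highest in AI with FGF9, at 229.9 FPKM against 137.4 without it, and its level in CM was 6.67 FPKM with FGF9 against 1.07 without.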

How the results depend on the processing

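The count of 3919 DEGs (1530 higher, 2389 lower) stayed within 1.5 times under every alternative but limma on log2 FPKM, where a pseudocount of 0.5 gave 2083 (1013 and 1070) and a pseudocount of 1 gave 1532 (770 and 762), and with the latter the share of higher genes was 50.3% in place of 39.0%. It was 3874 to 3945 with any replicate left out. Library size scaling moved the median log2 fold change of all genes to 0.109. With a pseudocount of 0.1 the counts that moved by over 1.5 times were adipogenesis brakes 4, respiratory chain 17, skeletal muscle 1, erythroid 0 and DNA replication 4. With 0.5 they were brakes 4, osteoblast factors 2, chondrocyte 6, stromal 4, endothelial 2, skeletal muscle 1, erythroid 0, interferon 12 and DNA replication 2. With 1 they were brakes 2, brown fat 3, osteoblast factors 2, osteoblast mineral genes 5, chondrocyte 6, stromal 3, endothelial 2, skeletal muscle 1, erythroid 0, complement 5, interferon 9, DNA replication 2, WNT 7 and BMP and TGF-beta 5. A pseudocount shrinks the folds of low genes by construction. Library size scaling gave respiratory chain 17 and DNA replication 5, voom gave interferon 10 and DNA replication 7, RLE scaling gave erythroid 0, the fit to the 6 samples gave brown fat 5, and the stricter filter, which tests fewer genes, gave brown fat 5, skeletal muscle 1 and erythroid 0. With a replicate left out, endothelial genes ranged from 5 (without CM replicate 2) to 8, DNA replication from 7 (without CM replicate 3) to 14, and erythroid from 0 (without AI replicate 1 or 2 or CM replicate 1 or 3) to 1. Over 196 named genes and 3328 values, 3267 kept their direction and side of the threshold, 44 lost the call, 16 gained it, and 1 reversed, Eef1a1 with voom (0.84). For the results that moved or reversed otherwise, the cause was not tested. The replicate numbers showed no clear pairing of the samples. The deviations of same-numbered AI and CM samples correlated at 0.00747, 0.00251 and 0.0491, and not every sample correlated best with its own number. With 3 samples per group this check cannot tell whether samples shared a mouse or a batch. A replicate block gave 3949 DEGs, 1546 higher and 2403 lower. Against OI the DEGs numbered 3827 to 3892 with a replicate left out. Depth limits genes with few reads, such as Ucp1 and Alas2, most.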
